A study of Mus musculus with 8 samples.

Results

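The genes described here mark B lymphocytes in lung tissue. They are Cd79a, Cd79b, Ms4a1, Blk, Pax5, Cd22, Fcer2a and Cr2, chosen by their symbols in the annotated matrix of an array study of untreated mouse lung. Of 41174 probes and 21229 gene symbols on the array, these 8 genes had 11 probes, with 2 probes each for Ms4a1, Cd22 and Cr2 and 1 probe for each of the other 5 genes. The samples were whole lungs of 4 wild-type and 4 Scgb3a2-transgenic C57BL/6 males, 8 to 10 weeks old by the labels, all without treatment. The transgene was mouse Scgb3a2 under the human surfactant protein C promoter, which is active in alveolar type II cells, and the transgenic mice carried it in addition to their own Scgb3a2 gene. The transgenic mice were of 1 line, so an effect of the line and of the transgene cannot be told apart. SCGB3A2 is a small secreted protein of airway epithelium, and the comparison asks how the lung's gene expression differs when more of it is made. Each lung was labelled with Cy5 and hybridised against Cy3-labelled RNA pooled from lungs, and the dyes were not swapped. All levels below are log2 ratios of a lung over this pool, so that 0 is the level of the pool. An offset between a lung and the pool cannot be told apart from a dye effect. Per the methods, each sample gave an equal amount of RNA to the pool. An offset that all 8 lungs share is therefore not read as a difference in the gene's level.

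B cells recognise antigen through surface immunoglobulin, which signals through the CD79A and CD79B chains to Src-family and Syk kinases. Coreceptors such as CD21 (Cr2) lower the threshold for this signal and others such as CD22 raise it, while the transcription factor PAX5 keeps the cells committed to the B lineage. In a healthy lung, B cells are found in the blood of the vessels, in the interstitium and in lymphoid aggregates near the airways.

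Cd79a, Cd22 and Cr2 are shown by the 250 bases before an annotated transcription start (RefSeq, GRCm38.p6, given 5′ to 3′ on the gene's strand). Cd79a is shown because it varied together with Cd79b and Ms4a1 from lung to lung, Cd22 because its window holds a motif of the B cell factor EBF1, and Cr2 because its first probe did not follow that trio over the 8 lungs. The window of Cd79a is chr7:24897247-24897496 on the plus strand, that of Cd22 is chr7:30879029-30879278 on the minus strand and that of Cr2 is chr1:195176720-195176969 on the minus strand. Capitals mark the EBF motif.
Cd79a: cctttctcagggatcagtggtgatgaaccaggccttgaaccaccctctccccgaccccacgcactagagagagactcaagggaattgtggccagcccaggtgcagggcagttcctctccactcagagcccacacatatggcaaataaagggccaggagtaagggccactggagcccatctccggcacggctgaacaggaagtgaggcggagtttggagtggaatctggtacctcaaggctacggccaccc
Cd22: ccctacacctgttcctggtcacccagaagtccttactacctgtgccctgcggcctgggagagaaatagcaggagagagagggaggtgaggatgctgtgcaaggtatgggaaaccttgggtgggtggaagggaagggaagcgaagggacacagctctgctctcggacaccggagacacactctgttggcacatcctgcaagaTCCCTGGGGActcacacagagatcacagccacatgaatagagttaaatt
Cr2: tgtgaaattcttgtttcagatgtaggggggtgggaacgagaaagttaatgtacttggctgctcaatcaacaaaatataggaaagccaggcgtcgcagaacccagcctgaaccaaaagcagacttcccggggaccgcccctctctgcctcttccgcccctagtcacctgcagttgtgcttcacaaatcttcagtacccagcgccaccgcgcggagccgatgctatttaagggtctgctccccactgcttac
Motifs were searched on both strands, and the overlap between motifs was not restricted. They were the octamer ATTTGCAT, present in 1.60% of the 32851 windows of the same length in the table, the EBF motif, TCCC and GGGA around a pair of free bases (0.779%), the ETS motif CCGGAAGT (2.88%), the E-box CAGCTG (13%) and TATAAA (12.4%). Of the 7 windows listed for 5 of the genes, that of Cd22 held the EBF motif, 1 of the windows of Fcer2a held CAGCTG, and another of Fcer2a held TATAAA. The windows of Cd79a, Cr2 and Pax5 held no exact match to any of these motifs. Only exact matches were counted, so a site that differs from the letters searched is not marked here.

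On the arrays, the median Cy5 signal was 204 to 277.5 units over a local background of 55.5 to 59 units, and 32257 to 34709 probes were well above background. The lungs were scanned on 2 days, with 2 wild-type and 2 transgenic lungs on each, and each of the 4 slides held 1 lung of each genotype. The Scgb3a2 probe, the check of the transgene, was higher in the transgenic lungs by 0.88 on the log2 scale (SE 0.24, limma unadjusted p = 0.00329, adjusted p = 1.00), and the wild-type lungs ran from -0.56 to 0.58 and the transgenic lungs from 0.47 to 1.26. All 8 lung epithelium markers examined were well above background on all 8 arrays, and so were all 11 probes of the B cell genes.

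No B cell probe passed the test of genotype after adjustment over the 32645 probes tested, and none did on the whole array (0%; limma, Benjamini-Hochberg). All 11 had a higher mean in the transgenic lungs, against 50.4% of all probes tested, but with median centring in place of loess Blk, Pax5 and the first probes of Cd22 and Cr2 were lower, by 0.05 or less. The 2 probes of Ms4a1 had an unadjusted p under 0.05, both higher in the transgenic lungs, against 1.12% of all probes higher at that level, 0.974% lower and 2.09% in either direction. The median change over the genes, at the brightest probe of each, was 0.11, against 0.00099 over all probes tested. In none of the 11 did the 2 genotypes separate without overlap, which 1.46% of 29494 probes with values in all lungs did (0.915% with the transgenic lungs higher). In bulk tissue, a different number of B cells and a different amount of RNA per B cell cannot be told apart.

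**Figure D1:**
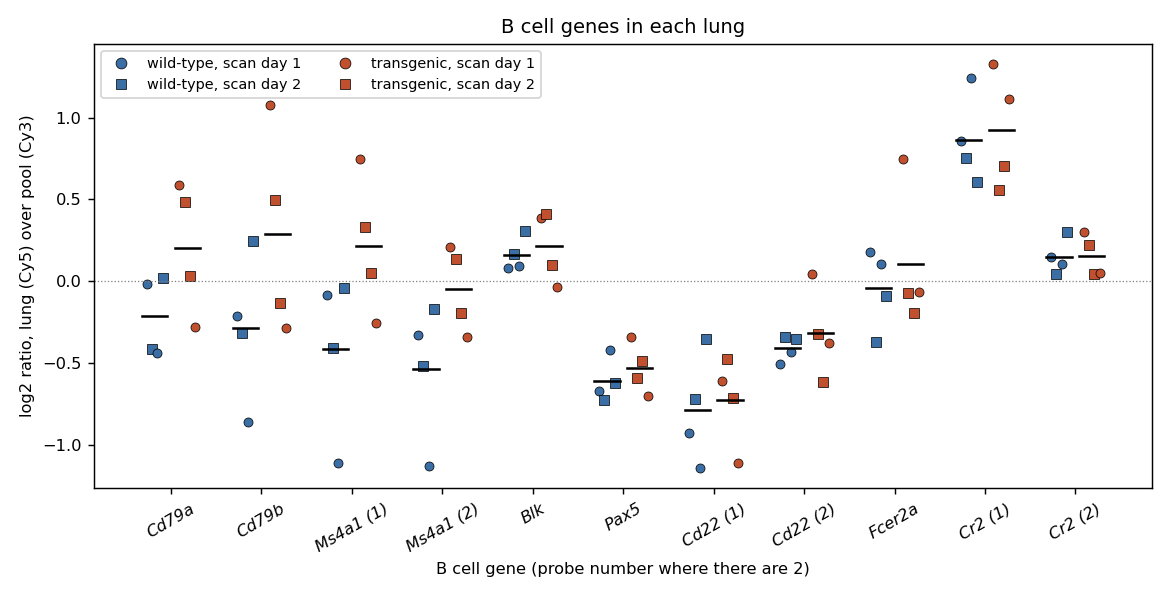
Log2 ratio of each lung over the pool (y axis) for the 11 probes of the B cell genes (x axis). Points are single lungs, by genotype and scan day, and bars are means of 4 lungs; the genotypes overlap at every probe, and the spread is widest for Cd79b and Ms4a1.

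Ms4a1 encodes CD20, a membrane protein of mature B cells. At its first probe the wild-type lungs stood at -0.08, -0.41, -1.11 and -0.04 on the log2 scale for replicates 1 to 4, and the transgenic lungs at 0.75, 0.33, 0.05 and -0.26. Transgenic replicates 1, 2 and 3 lay above every wild-type lung, and replicate 4 lay between wild-type replicates 1 and 2. The means were -0.41 ± 0.49 (SD, n = 4) and 0.22 ± 0.43 (SD, n = 4), a log2 fold change of 0.63 (SE 0.25, 95% interval 0.07 to 1.18), or 1.55-fold. The limma unadjusted p was 0.0297 and the adjusted p 1.00, and an exact permutation of the genotypes, two-sided, gave p = 0.114, where 4 lungs against 4 allow no p below 0.0286.

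At the second probe of Ms4a1 the wild-type lungs stood at -0.33, -0.52, -1.13 and -0.17, and the transgenic lungs at 0.21, 0.13, -0.20 and -0.34. Here transgenic replicates 1 and 2 lay above every wild-type lung. The log2 fold change was 0.49 (SE 0.20, limma unadjusted p = 0.0324, adjusted p = 1.00; exact permutation p = 0.143). Both probes had wild-type replicate 3 lowest and transgenic replicate 1 highest, and they varied together over the 8 lungs with r = 0.980 (exact permutation p = 7.44e-05) and rho = 0.976 (p = 0.000397), or, after adjustment over the 3 genes with 2 probes, p = 0.000223 and 0.00119. Without the 2 lungs farthest from the median of the first probe, r was 0.967.

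Cd79a encodes Ig-alpha, a signalling chain of the B cell receptor. It stood at -0.02, -0.42, -0.44 and 0.02 in the wild-type lungs and at 0.59, 0.48, 0.03 and -0.28 in the transgenic lungs. Transgenic replicates 1, 2 and 3 lay above all wild-type lungs, replicate 3 by little, and replicate 4 lay among them. The means were -0.21 ± 0.25 (SD, n = 4) and 0.20 ± 0.40 (SD, n = 4), and the log2 fold change of 0.42 (SE 0.19) missed the threshold before adjustment (limma unadjusted p = 0.0524, adjusted p = 1.00; exact permutation p = 0.114).

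Cd79b encodes Ig-beta, the partner of Ig-alpha. It stood at -0.22, -0.32, -0.86 and 0.25 in the wild-type lungs and at 1.08, 0.50, -0.13 and -0.29 in the transgenic lungs. Transgenic replicates 1 and 2 were the 2 highest lungs, and the others were mixed. The log2 fold change was 0.57 (SE 0.29, limma unadjusted p = 0.0763, adjusted p = 1.00; exact permutation p = 0.171). Its highest lung exceeded its lowest 3.83-fold, a log2 range wider than in 99.5% of the 29494 probes, and the first probe of Ms4a1 had a range of 3.63-fold.

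Within slides, the transgenic lung was above its wild-type neighbour at Cd79a by 0.16, 0.60, 0.90 and 0.02 on slides 1 to 4, and at the first probe of Ms4a1 by 0.85, 0.83, 0.74 and 0.09. At Cd79b the differences were 0.57, 1.29, 0.81 and -0.38. The transgenic lung was therefore higher on all 4 slides at Cd79a and this probe of Ms4a1 and on 3 slides at Cd79b. With the slide as a block, limma's unadjusted p was 0.0203 for Cd79a, 0.0309 for Cd79b and 0.00145 and 0.00643 for the probes of Ms4a1. In this fit 4 of the 11 probes were thus under 0.05, and the adjusted p was 1.00 for each. Across the whole array 1195 probes were under 0.05 in this fit, against 683 in the fit without blocks. On scan day 1 the difference was 0.38 for Cd79a, 0.93 for Cd79b and 0.84 for the first probe of Ms4a1, and on scan day 2 it was 0.46, 0.22 and 0.42.

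The differences were smaller without transgenic replicate 1 or wild-type replicate 3. Without transgenic replicate 1 the log2 fold change was 0.29 at Cd79a, 0.31 at Cd79b and 0.45 at the first probe of Ms4a1, and no B cell probe had an unadjusted p under 0.05 in limma. Without this lung, Blk, Fcer2a, the second probe of Cd22 and both probes of Cr2 had a lower mean in the transgenic lungs. Without wild-type replicate 3 the change of the first probe of Ms4a1 was 0.40, and the count was again 0. The count was also 0 without wild-type replicate 2, where the probes of Ms4a1 kept changes of 0.63 and 0.49 over 7 lungs (limma unadjusted p = 0.0516 and unadjusted p = 0.0540), and without transgenic replicate 2, where they had 0.59 and 0.43. It was 4 without wild-type replicate 4 or without transgenic replicate 4. Across the whole array 683 probes were under 0.05 with all lungs, 1171 without wild-type replicate 4 and 1013 without transgenic replicate 4. Where the B cell count was 0, they numbered 1062 without transgenic replicate 1 and 633 without wild-type replicate 3. Without wild-type replicate 2 they numbered 510, and without transgenic replicate 2 484.

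**Figure D2:**
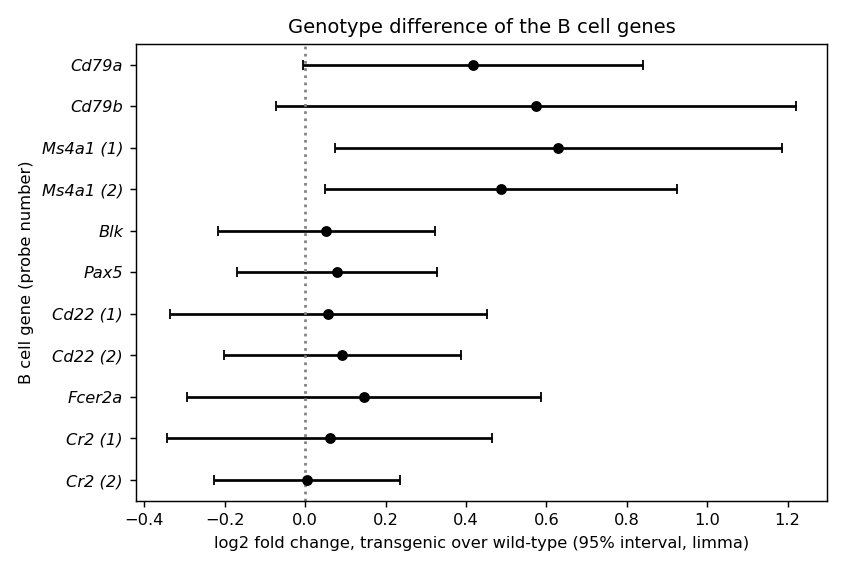
Log2 fold change, transgenic over wild-type, of each B cell probe (points, x axis) with its 95% interval from limma (bars). The intervals of the 2 probes of Ms4a1 lie above 0, before adjustment, and the other 9 include 0.

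The other genes had changes of 0.15 or less. Blk, a Src-family kinase that acts downstream of the receptor, stood at 0.08, 0.17, 0.09 and 0.31 in the wild-type lungs and at 0.38, 0.41, 0.10 and -0.03 in the transgenic lungs, so the transgenic lungs were both the highest and the lowest. Its log2 fold change was 0.05 (95% interval -0.22 to 0.32, limma unadjusted p = 0.674). Pax5, the B lineage commitment factor, stood at -0.67, -0.73, -0.42 and -0.62 against -0.34, -0.59, -0.49 and -0.71. It was below the pool in all 8 lungs and spanned a narrow range of 1.31-fold, with a change of 0.08 (interval -0.17 to 0.33, limma unadjusted p = 0.496).

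Cd22 encodes an inhibitory coreceptor that binds sialic acid. At its first probe the wild-type lungs stood at -0.93, -0.72, -1.14 and -0.35 and the transgenic lungs at -0.61, -0.48, -0.72 and -1.11, all below the pool and with the genotypes mixed (change 0.06, interval -0.34 to 0.45, limma unadjusted p = 0.756). The second probe of Cd22 had a change of 0.09 (limma unadjusted p = 0.503). Its lungs ran from -0.62 to 0.04. It followed the first probe loosely, with r = 0.318 (exact permutation p = 0.472) and rho = 0.50 (p = 0.216), or adjusted p = 0.708 and 0.324. Without the 2 lungs farthest from the median of the first probe, r was 0.351.

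Fcer2a encodes CD23, the low-affinity IgE receptor of mature B cells. It stood at 0.18, -0.37, 0.11 and -0.09 in the wild-type lungs and at 0.74, -0.07, -0.19 and -0.07 in the transgenic lungs. Transgenic replicate 1 stood alone among the transgenic lungs, and the other 3 lay within the wild-type range. The change was 0.15 (interval -0.29 to 0.59, limma unadjusted p = 0.479).

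Cr2 encodes the complement receptor CD21, which follicular dendritic cells also carry. At its first probe it stood at 0.86, 0.75, 1.24 and 0.61 in the wild-type lungs and at 1.33, 0.56, 0.70 and 1.12 in the transgenic lungs. All 8 lungs were above the pool, and the genotypes were mixed (change 0.06, interval -0.34 to 0.47, limma unadjusted p = 0.747). The lungs of scan day 1, wild-type replicates 1 and 3 and transgenic replicates 1 and 4, stood at 0.86 to 1.33, above those of scan day 2 at 0.56 to 0.75. The days gave the smallest possible p, 0.0286, in an exact permutation test, two-sided, as they did for Fcer2a (-0.07 to 0.74 on day 1, -0.37 to -0.07 on day 2). These were 2 of 11 B cell probes examined in this way (18.2%), against 7.04% of the 29494 probes in which the days did not overlap. The second probe of Cr2 was dim, at 85 to 105 units of Cy5 over a background of 54 to 59.5, and ran from 0.04 to 0.30. It did not follow the first, with r = -0.02 (exact permutation p = 0.954) and rho = -0.05 (p = 0.935), or adjusted p = 0.954 and 0.935. Without the 2 lungs farthest from the median of the first probe, r was -0.59.

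Over the 28 pairs of the 8 genes, at the brightest probe of each, 22 had a positive Pearson's r over the 8 lungs, with a median r of 0.55 and a median rho of 0.45. Of these, 3 pairs passed an exact permutation test adjusted over the 28 pairs, and they were the pairs among Cd79a, Cd79b and Ms4a1. With the scan day means removed, 13 pairs passed and the median r was 0.74. The permutation there shuffled all 8 lungs and not within days, so its p can be too small and the count too high. Within the lungs of scan day 1 all 28 pairs had r above 0 (median 0.82), and within those of day 2 19 had (median 0.58). Cd79a and Cd79b had r = 0.925 (exact permutation p = 9.92e-05, adjusted 0.00278) and rho = 0.976 (p = 0.000397, adjusted 0.0037). Cd79a and Ms4a1 had r = 0.912 (exact permutation p = 0.000223, adjusted 0.00313) and rho of 1, which means that the 8 lungs stood in the same order for both genes (p = 4.96e-05, adjusted 0.00139). Cd79b and Ms4a1 had r = 0.945 (exact permutation p = 0.00122, adjusted 0.0113) and rho = 0.976 (p = 0.000397, adjusted 0.0037).

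Without the 2 lungs farthest from the median of the first-named gene of each pair, r of these pairs was 0.776, 0.834 and 0.839 in that order. Within the 4 lungs of scan day 1 r of the trio was 0.978, 0.944 and 0.963, and within those of day 2 it was 0.898, 0.990 and 0.840. With the genotype means removed, r was 0.896, 0.864 and 0.928. Without transgenic replicate 1 no pair of the 28 passed, and the median r over the pairs was 0.07.

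The other genes followed the trio to different degrees. Against the mean of the other 7 genes, r was 0.945 for Cd79b, 0.919 for Cd79a, 0.836 for Ms4a1, 0.747 for Blk, 0.623 for Fcer2a, 0.507 for Cd22 and 0.467 for Pax5. Cr2 had r = -0.03 at its first probe, and its pairs at that probe ran from -0.62 with Cd22 to 0.69 with Fcer2a. With Cd79a, Cd79b and Ms4a1 this probe had r of 0.27, 0.36 and 0.12 within scan day 1 and of -0.893, -0.998 and -0.839 within scan day 2. With the mean of the 8 genes, which includes its first probe, Cr2 had r = 0.117 at that probe. The second, dim probe of Cr2 had r = 0.776 with the same mean, so the probes of this gene disagreed. These values describe 8 arrays that share 1 pool.

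**Figure D3:**
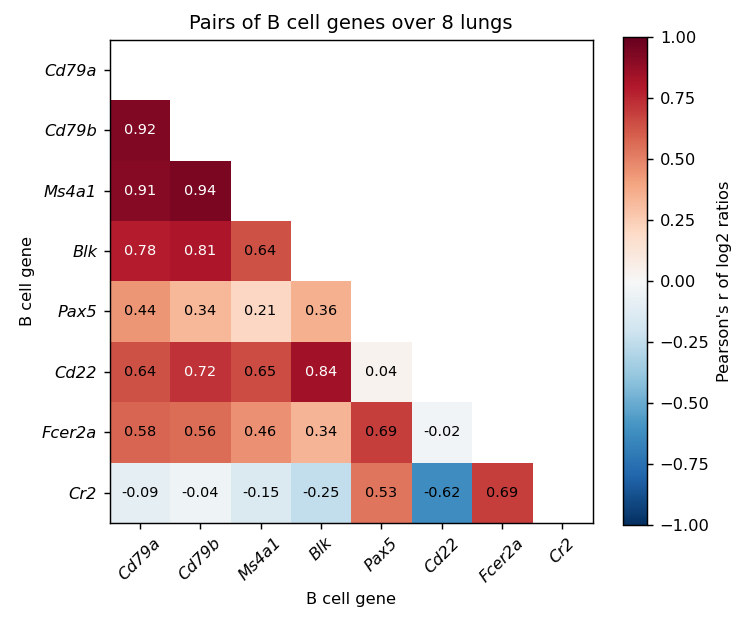
Pearson's r between the log2 ratios of each pair of B cell genes over the 8 lungs (colour and number), with genes on both axes. The highest values stand among Cd79a, Cd79b and Ms4a1 (0.91 to 0.94), and the lowest is -0.62 for Cd22 and Cr2.

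Transgenic replicate 1 was the highest lung for 8 of the 11 probes and wild-type replicate 3 the lowest for 5. These arrays also had the widest log2 ratios over all probes, with SDs of 0.494 and 0.463, against 0.330 to 0.445 on the other arrays. How often these lungs were the extremes over all probes was not tested. Averaged over the 8 genes, the wild-type lungs stood at -0.10, -0.26, -0.32 and 0.01 and the transgenic lungs at 0.49, 0.14, -0.08 and -0.20. The order of the lungs therefore ran across the genotypes, with wild-type replicate 4 above transgenic replicates 3 and 4.

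Among the 10 genes whose pattern was most like this mean, over 8 lungs and 29494 probes, were Cd72, Irf4, 4833420G17Rik, Adat3, H2-Oa, Crocc, Cd37, Spib and Rev3l, with r from 0.982 for Cd72 down to 0.969 for Rev3l. Cd72 and Cd37 encode B cell membrane proteins, H2-Oa a class II chaperone of B cells, and Irf4 and Spib transcription factors of lymphocytes. Over all probes the median r with this mean was 0.06, and 7.88% had r above 0.7. Without transgenic replicate 1 the r of the genes named was 0.905 to 0.961.

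Further genes of the B cell were taken by list. Of 31 probes of 22 other B cell surface genes, 22 were higher and 9 lower in the transgenic lungs, with a median change of 0.12. Fcmr (Faim3 in the files), an Fc receptor for IgM, and Fcrla, an Fc receptor-like protein of B cells, were the 2 with an unadjusted p under 0.05. Fcmr stood at -0.65, -0.52, -1.56 and -0.01 in the wild-type lungs and at 0.78, 0.47, -0.16 and -0.40 in the transgenic lungs (change 0.86, SE 0.32, limma unadjusted p = 0.0211, adjusted p = 1.00). As with Ms4a1, wild-type replicate 3 was lowest and transgenic replicate 1 highest. Fcrla had a change of 0.34 (limma unadjusted p = 0.0294). Both genes were higher, against 1.12% of all probes tested that were higher with an unadjusted p under 0.05.

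Of 28 probes of 17 genes of B cell receptor signalling, 21 were higher and 7 lower, with a median change of 0.09 and 3 probes under 0.05, all higher. Over all probes tested, 50.4% had a higher mean in the transgenic lungs, 1.12% were higher with an unadjusted p under 0.05, and 1.46% of those with values in all lungs did not overlap. Rasgrp3, which activates Ras downstream of the receptor, had a change of 0.60 (limma unadjusted p = 0.0297). The phosphatase Ptpn6 had a change of 0.25 (limma unadjusted p = 0.0215) at 1 of 3 probes, where the genotypes did not overlap. This probe was dim, with a mean Cy5 signal of 98.5 units, against 1274 and 625 units at the others. The changes at those brighter probes were 0.14 and 0.08.

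Of 19 probes of 13 B cell transcription factors, 12 were higher and 7 lower, with a median change of 0.07. Under 0.05 were 4 probes, all higher, against 1.12% of all probes tested that were higher at that level. Of the probes with values in all lungs, 1.46% did not overlap between genotypes. Spib, an ETS factor, stood at -0.61, -0.73, -1.11 and -0.39 in the wild-type lungs and at 0.89, 0.04, -0.26 and -0.51 in the transgenic lungs (change 0.75, SE 0.26, limma unadjusted p = 0.0152, adjusted p = 1.00). Transgenic replicates 1, 2 and 3 lay above all wild-type lungs. The repressor Bach2 had a change of 0.29 (limma unadjusted p = 0.0213), and the 2 probes of Irf8, which myeloid cells also express, had 0.30 (unadjusted p = 0.0346) and 0.29 (unadjusted p = 0.0417). Tcf3, an E protein, did not overlap between genotypes at 1 probe (change 0.17, limma unadjusted p = 0.115) and had -0.05 at the other.

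Stages of the lineage were read from shorter lists. Ighm, the immunoglobulin mu chain, stood at -0.07, -0.28, -1.23 and 0.25 in the wild-type lungs and at 1.12, 0.60, 0.13 and -0.12 in the transgenic lungs. It had a change of 0.76 (SE 0.32, limma unadjusted p = 0.0346, adjusted p = 1.00), and its lungs followed the mean of the 8 genes with r = 0.912. Of 9 plasma cell probes 7 were higher and 2 lower (median 0.15), of 10 germinal center probes 7 were higher and 3 lower (median 0.05), and of 6 probes of B cell precursor genes 1 was higher and 5 lower (median -0.13), with none under 0.05 in these 3 lists. Median r with the mean of the 8 genes was 0.76 for 5 plasma cell genes, 0.58 for 5 germinal center genes and -0.42 for 3 precursor genes. Without transgenic replicate 1 these medians were 0.61, -0.11 and -0.75. Of 12 probes of follicle and lymphoid tissue genes 10 were higher and 2 lower (median 0.14), among them Ltb, the membrane anchor of lymphotoxin, with 0.62 (limma unadjusted p = 0.0417).

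Markers of T cells, NK cells and myeloid cells also varied from lung to lung, in part with the B cell genes, and their part in the result was not tested. Of 28 T cell probes 21 were higher and 7 lower in the transgenic lungs (2 of the higher and none of the lower under 0.05), of 12 NK cell probes 10 and 2 (1 of the higher under 0.05), of 13 myeloid probes 9 and 4 and of 9 red cell probes 5 and 4. Of 8 lung epithelium probes 2 were higher and 6 lower (median -0.19), with Scgb3a2 among the higher and the surfactant protein gene Sftpa1 among the lower (change -0.75, limma unadjusted p = 0.0238). Among all probes tested 50.4% were higher, 1.12% were higher with an unadjusted p under 0.05 and 0.974% were lower at that level. The mean of the T cell genes ran from -0.24 to 0.03 in the wild-type and from -0.19 to 0.26 in the transgenic lungs. In the T cell list and in the myeloid list, the same lungs stood at both ends of each genotype as for the B cell genes. The mean of the NK cell genes ran from -0.21 to 0.32 and from 0.10 to 0.28, that of the myeloid genes from -1.33 to -0.60 and from -1.62 to -0.26, and that of the red cell genes from -0.09 to 0.54 and from -0.15 to 0.97. Of the other B cell surface genes 14 of 21 had r above 0.7 with the mean of the 8 B cell genes, of T cell genes 6 of 18, of NK cell genes 2 of 8, of myeloid genes 3 of 9 and of red cell genes 0 of 5. Of the lung epithelium markers none of 5 did, and their median r was -0.40. Their mean was highest, at 0.77, in wild-type replicate 3, where the mean of the 8 B cell genes was lowest.

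**Figure D4:**
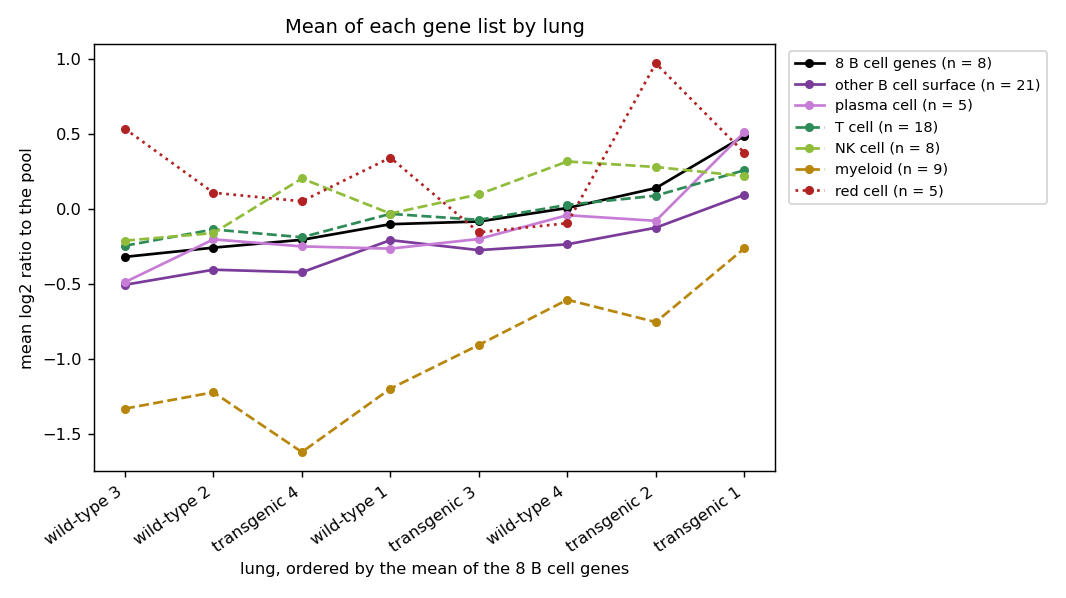
Mean log2 ratio to the pool (y axis) of 7 gene lists in each lung (x axis), with the lungs in order of the mean of the 8 B cell genes. The lists of other B cell surface, plasma cell, T cell and myeloid genes are highest in transgenic replicate 1, where the B cell mean is 0.49, with the widest range in the myeloid list (-1.62 to -0.26), and the red cell list does not follow this order.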

How the data were processed

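Whole-lung RNA of 8 untreated mice was measured on 2-colour Agilent arrays. The authors deposited, for each array, Feature Extraction output with median intensity and background per spot (version 11.0.1.1 in the submitters' notes, 10.10.1.1 in the file headers), and a matrix of log2 ratios of processed Cy5 over Cy3 signals; its single-spot values matched the processed ratios within 0.001. Per the methods the pool held an equal amount of RNA from each sample, and the arrays were analysed in GeneSpring. Here, in R 4.3.3 with limma 3.58.1, the background was corrected by normexp (offset 50) fitted on unflagged spots, flagged spots (1.72% to 6.46%) were left out, ratios were normalized by loess within arrays and spots of a probe were averaged. Probes well above background in Cy5 on at least 4 of 8 arrays, with 2 values per genotype, were tested by limma's moderated test, two-sided, with Benjamini-Hochberg adjustment. The number of arrays limits the precision. The limma and permutation scripts were tested on simulated data.

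The members and gene lists were chosen with earlier results of these data known. Named from the 3 main B cell lists were genes with an unadjusted p under 0.05 or without overlap, and by likeness the 10 genes with the highest r; some of these genes are not reported here. Alternatives were other background fits, centring, filters, blocks for slide, scan day and replicate number, array weights, the authors' matrix, Cy5 alone, the methods' t-test and leaving out each lung. Labels give separate animals as biological replicates.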

Additional observations from a re-analysis of the deposited data

Results flagged for a closer look

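Of 22 groups of 4 lungs, 1 for each genotype and B cell probe, 1 held a lung far from the others. At Fcer2a, transgenic replicate 1 stood at 0.74 on the log2 scale, and its gap to the nearest transgenic lung was 0.866 of the group's range. Chance alone marks about 1 group in 20 in this way.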

How the results depend on the processing

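The count of B cell probes with an adjusted p under 0.05 was 0 under every alternative run. The count with an unadjusted p under 0.05, 2 as reported, was 0 with normexp fitted on all spots, 0 with Cy5 alone, 0 by the methods' t-test, 1 with median centring, 4 with slides as blocks and also 4 with a replicate block, and it ranged from 0 to 4 when single lungs were left out. The changes of Cd79a, Cd79b and both probes of Ms4a1 stayed above 0 in all of these. Across the whole array, probes with an unadjusted p under 0.05 numbered 683 as reported. They numbered 391 with normexp fitted on all spots, 301 with Cy5 alone and 864 by the methods' t-test. With median centring they numbered 602, with slides as blocks 1195 and with a replicate block 858. The count of pairs that varied together, 3 as reported, was 13 with scan day means removed and 5 with replicate number means removed (replicate block). After means were removed the permutation still shuffled all lungs freely, so these 2 counts can be too high. The count ranged from 0 to 3 when single lungs were left out. Same-numbered lungs deviated together for numbers 1 and 2 (r = 0.32 and 0.25) and not for 3 and 4 (-0.08 and -0.21). The numbers were therefore not taken to pair the lungs. The lungs of number 1 shared slide 2 and those of number 2 shared slide 3, while those of numbers 3 and 4 lay on different slides. Over slides 1 to 4, the lungs of a slide deviated with r = 0.30, 0.32, 0.25 and 0.08. Slide was a block only in an alternative fit.

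Changes near 0 turned negative under some settings, and the cause was not tested. With normexp fitted on all spots they were -0.062 (Blk), -0.032 (Cd22, probe 1), -0.079 (Cr2, probe 1) and -0.081 (Cr2, probe 2). Median centring, which moved the median of all probes to -0.048, gave -0.048 (Blk), -0.0032 (Pax5), -0.041 (Cd22, probe 1) and -0.0059 (Cr2, probe 1). Cy5 alone gave -0.018 (Pax5), and array weights -0.013 (Cd22, probe 2), -0.049 (Cr2, probe 1) and -0.022 (Cr2, probe 2). With single lungs left out, the lowest and highest changes were -0.012 and 0.14 for Blk, -0.062 and 0.20 for Cd22 probe 1, -0.028 and 0.19 for its probe 2, -0.067 and 0.25 for Fcer2a, -0.073 and 0.19 for Cr2 probe 1 and -0.044 and 0.055 for its probe 2. The median change over the genes stayed above 0, from 0.0168 without transgenic replicate 1 to 0.194 without transgenic replicate 2.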
